A study of Homo sapiens with 25 samples.

Results

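The promoter-type LSD1 sites with GFI1 were the 4497 peaks of the LSD1 list of DMSO-treated cells that shared at least 1 base with a GFI1 peak and at least 1 base with an H3K4me3 peak of DMSO-treated cells. They made up 35.8% of the 12562 LSD1 peaks in DMSO. The other LSD1 peaks fell into 3245 that overlapped H3K4me3 without GFI1, 2637 that overlapped GFI1 without H3K4me3 and 2183 that overlapped neither. The sites were thus selected on LSD1 binding in DMSO, GFI1 binding and H3K4me3 in DMSO, and values of those 3 lists at the sites are descriptions. Promoter-type is used here for overlap with H3K4me3 only, because the lists were on the hg18 build and no gene annotation of that build was used.

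The cells were NB4, an established line from acute promyelocytic leukemia that carries the PML-RARA fusion and matures along the granulocyte lineage when given retinoic acid (RA). They were treated for 24 h with MC_2580 (an LSD1 inhibitor, per the labels), RA 0.01 µM, RA 1 µM, MC_2580 together with RA 0.01 µM (called the combination below) or DMSO, and analysed by chromatin immunoprecipitation and sequencing (ChIP-seq). H3K4me1, H3K4me2, H3K4me3 and H3K27ac were profiled in all 5 conditions, LSD1 with MC_2580 and with DMSO, and GFI1 in untreated cells. There was 1 library for each antibody in each condition and hence no replicate check. Every interval below is a 95% interval and covers counting error over peaks alone. The labels give no dose for MC_2580. For H3K4me3 with the combination, the sample title and the treatment field disagree on the RA dose (1 µM in the title, 0.01 µM in the field). The field was followed, so combination values of H3K4me3 rest on it.

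LSD1 (KDM1A) is a flavin-dependent demethylase that removes monomethyl and dimethyl groups from lysine 4 of histone H3 and leaves the trimethyl state untouched. GFI1 is a zinc finger repressor of myeloid and lymphoid cells whose SNAG domain binds LSD1, which it brings to chromatin together with the CoREST complex. H3K4me3 marks active and poised promoters, H3K4me1 marks enhancers and promoter flanks, H3K4me2 lies across both, and H3K27ac marks active promoters and enhancers.

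The lists differed in length, which bears on each share and width below. The 5 H3K4me3 lists held between 29872 peaks (100.6 Mb, MC_2580) and 21688 peaks (63.9 Mb, DMSO). The 5 H3K27ac lists held between 24552 peaks (95.3 Mb, MC_2580) and 55793 peaks (199.2 Mb, RA 0.01 µM), with 32789 in DMSO. The LSD1 lists held 18822 peaks with MC_2580 and 12562 with DMSO, and the GFI1 list held 29601. Read depths are not given in these files. Their part in the differences between conditions, and in those between sites with and without GFI1, was not tested. The comparisons by GFI1 use the same lists on both sides, but at LSD1 peaks that differ in width.

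The sites were the widest class of LSD1 peak. Their median width was 2631 bases (interval 2585 to 2675), against 1889 bases for all other LSD1 peaks, a ratio of 1.39. LSD1 peaks over H3K4me3 without GFI1 had a median of 2097 bases, those over GFI1 without H3K4me3 1762 bases, and those over neither 1693 bases. Width bears on whether a peak meets both lists, so the gap is a description and no finding beside the rule. The sites ran from 373 to 24272 bases, with the middle 50% between 1981 and 3577; 51 sites were narrower than 1 kb and 435 (9.67%) were wider than 5 kb. Their LSD1 score, the authors' peak score on the scale of -10 times log10 of the caller's p-value, had a median of 509, against 356, 444 and 325 in the other classes in the order just given. Within quartiles of the LSD1 score the sites stayed wider than LSD1 peaks over H3K4me3 without GFI1, at 2012 against 1791 bases in the lowest quartile and 3395 against 3130 bases in the highest.

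Among the highest LSD1 scores, the site at chr5:138024312-138027383 (hg18, as are all coordinates here) was 3072 bases wide and scored 3233, and its H3K4me3 peak in DMSO was 1297 bases wide. Another, at chr19:50985465-50987767, was 2303 bases wide and scored 3225 over an H3K4me3 peak of 1622 bases. A further one, at chr10:73722400-73730141, was 7742 bases wide, scored 3202 and had 3 GFI1 peaks over an H3K4me3 peak of 2692 bases. In all 3 the LSD1 centre lay nearer to an edge of the H3K4me3 peak than to its middle. Other sites with such scores differed. That at chr8:10610709-10613326 was centred outside its H3K4me3 peak, and that at chr13:40782491-40784761 near the middle of its own. The widest site, chr19:8455947-8480218, spanned 24272 bases and 8 GFI1 peaks, and the site at chr19:10379405-10402413 spanned 23009 bases and 7 GFI1 peaks.

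Most sites held a single GFI1 peak. There were 3409 sites with 1 GFI1 peak, 860 with 2 and 228 with more, up to 9. The GFI1 peak with the longest overlap lay a median of 418 bases from the LSD1 centre, against 188 bases at LSD1 peaks over GFI1 without H3K4me3, and in 2585 sites (57.5%) it lay within 500 bases. The highest GFI1 score at a site had a median of 120, against 135 at LSD1 peaks without H3K4me3 and 72.7 over the whole GFI1 list. The overlap itself was long in most cases, with a median of 959 bases shared with GFI1 and 2146 bases with H3K4me3; 30 sites shared fewer than 100 bases with 1 of the lists. Just inside the rule, the site at chr16:82543340-82545543 shared 9 bases with a GFI1 peak and that at chr3:17995546-17996272 shared 14. Just outside it, the LSD1 peak at chr10:80523023-80525403 ended with a gap of 0 bases before a GFI1 peak, and that at chr12:27280097-27281553 missed an H3K4me3 peak by 3 bases.

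The sites were spread unevenly over the chromosomes, and so was the GFI1 list. On chromosome 12, 33.8% of the H3K4me3 peaks in DMSO held a site (interval 31.1 to 36.5), on chromosome 7 31.0% and on chromosome 11 29.2%, against 14.7% on chromosome 1, 14.5% on chromosome 19 and 3.33% on chromosome X (interval 2.02 to 5.15). The share of H3K4me3 peaks with a GFI1 peak ran from 20.3% to 52.6% over the 22 autosomes and was 8.06% on X. It exceeded 40% on 6 autosomes and was under 25% on 7. LSD1 with MC_2580 covered 50.1% to 65.2% of the H3K4me3 peaks of an autosome and 38.0% on X. That list is longer than the LSD1 list of DMSO, on which the rule rests. H3K4me3 peaks with LSD1 in DMSO but no site made up 11.2% on chromosome 12, 10.3% on 7 and 13.1% on 11. Their share was 16.7% on chromosome 1, 16.3% on 19 and 11.6% on X. The part of chromosome copy number in NB4 was not tested. Sites were otherwise scattered, with a median of 58544 bases to the nearest other site and 742 sites (16.5%) within 10 kb of one.

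The sites lay in 4488 of the 21688 H3K4me3 peaks in DMSO (20.7%). Of these H3K4me3 peaks 4331 held 1 site, 142 held 2 and 15 held more, up to 4. Position was measured as the distance of the LSD1 centre from the centre of the H3K4me3 peak, where 0 is the centre and 1 the edge. The median was 0.32 (interval 0.31 to 0.34), against 0.33 (0.32 to 0.34) for LSD1 peaks over H3K4me3 without GFI1, so the 2 classes were not distinguishable in their median position. Of the sites, 33.2% were centred within 0.2 of the H3K4me3 centre and 341 (7.58%) had their centre outside the peak, against 31.2% and 6.50% without GFI1. What differed was extent. The LSD1 peak spanned the whole H3K4me3 peak at 903 sites (20.1%), against 14.5% without GFI1, and lay wholly inside it at 41.0%, against 46.2%. It crossed 1 edge at 38.9%, against 39.4%. Taking for each site the H3K4me3 peak with which it shared most bases, these peaks were also wider, with a median of 3359 against 3012 bases, and the LSD1 peak took a median of 0.81 of that width, against 0.72. A wider LSD1 peak meets a GFI1 peak more easily, so these differences in extent are a description too. GFI1 lay farther out than LSD1, with a median relative distance of 0.40 and a centre outside the H3K4me3 peak at 435 sites (9.67%). At 59.7% of sites the GFI1 centre was farther from the H3K4me3 centre than the LSD1 centre was. The rule ties the LSD1 peak to H3K4me3 and the GFI1 peak only to LSD1, so these distances are a description.

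**Figure D1:**
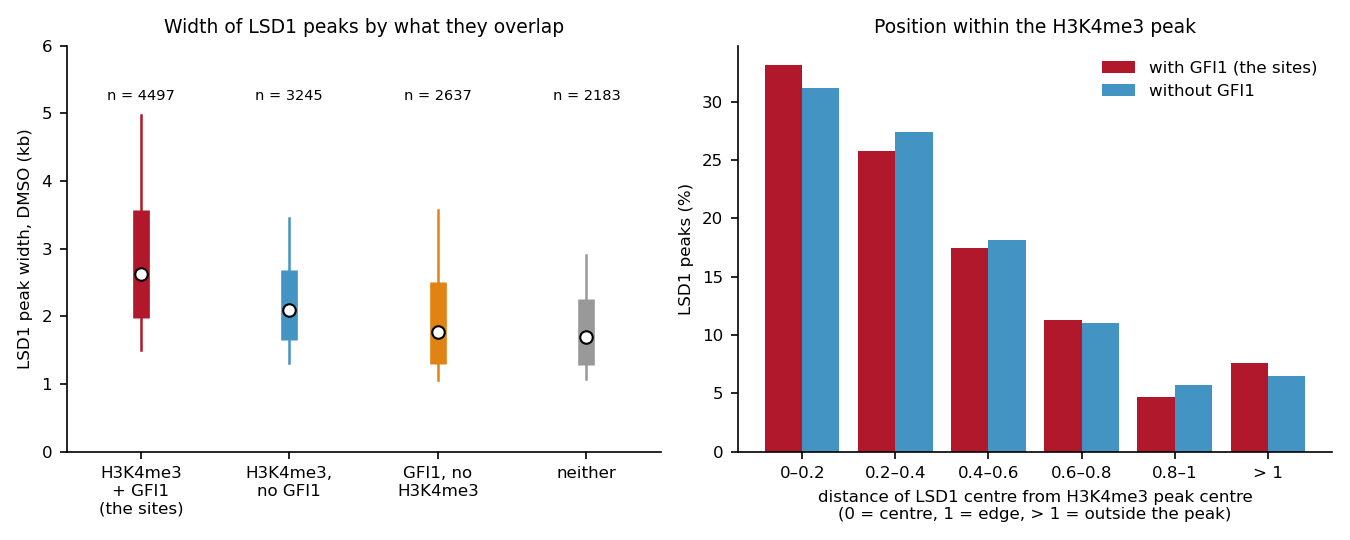
Left, width of LSD1 peaks in DMSO in kb by what they overlap (circle, median; thick bar, middle 50%; thin line, 10th to 90th percentile). Right, percent of LSD1 peaks by the relative distance of their centre from the H3K4me3 peak centre; the sites (red) are wider than the other classes, while their positions are close to those of peaks without GFI1 (blue).

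LSD1 itself was called again at nearly every site when its inhibitor was present. With MC_2580, 4345 of the 4497 sites (96.6%, interval 96.0 to 97.1) overlapped an LSD1 peak, beside 92.2% of all LSD1 DMSO peaks. The share was 97.7% for LSD1 peaks over H3K4me3 without GFI1, 79.3% for those over GFI1 without H3K4me3 and 90.6% for those over neither. The sites thus stood -1.10 percentage points from LSD1 peaks over H3K4me3 without GFI1 (interval -1.83 to -0.35). They stood 17.3 points above LSD1 peaks over GFI1 without H3K4me3 (15.7 to 19.0). Within quartiles of the LSD1 score the sites kept LSD1 less often than LSD1 peaks over H3K4me3 without GFI1. The shares were 90.5% against 94.8% in the lowest quartile and 99.2% against 100% in the highest. LSD1 peaks were broader with MC_2580, with a median of 3667 bases at the 4345 sites and a median width ratio to DMSO of 1.27, against a ratio of 1.31 without GFI1. The LSD1 list with MC_2580 had been cut at a higher minimum score (357) than the DMSO list (234) before deposit.

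The methyl marks were nearly saturated at the sites. H3K4me1 overlapped 99.3% of the sites with MC_2580, 99.2% with RA 0.01 µM, 99.4% with RA 1 µM, 99.7% with the combination and 99.4% with DMSO. With RA 0.01 µM the H3K4me1 call was lost at 20 sites (0.447% of those that had it), beside 2.85% of all LSD1 peaks. It was lost at 15 with MC_2580 (0.335%, beside 0.416%), 14 with RA 1 µM (0.313%, beside 1.45%) and 8 with the combination (0.179%, beside 0.299%). Without GFI1, LSD1 peaks over H3K4me3 lost it at 0.248% with MC_2580, 1.61% with RA 0.01 µM, 0.466% with RA 1 µM and 0.124% with the combination. Of the 25 sites without it in DMSO, 10 had it with MC_2580 (beside 39.7% of all LSD1 peaks without the mark), 10 with RA 0.01 µM (beside 11.5%), 11 with RA 1 µM (beside 14.5%) and 18 with the combination (beside 53.9%). The flanks differed more than the sites: the mean length under an H3K4me1 peak within 5 kb of the site centre was 6169 bases with RA 0.01 µM and 6545 bases with RA 1 µM, against 7183 bases with DMSO, changes of -14.1% and -8.88%. With MC_2580 it was 7251 bases and with the combination 7078. Around LSD1 peaks over H3K4me3 without GFI1 the changes were -16.2% with RA 0.01 µM and -9.82% with RA 1 µM. The whole H3K4me1 lists covered 161.0 Mb with RA 0.01 µM, 179.0 Mb with RA 1 µM and 203.1 Mb with DMSO. The drop was thus not particular to the sites. At 2 kb from the site centre 67.4% of sites lay under an H3K4me1 peak with RA 0.01 µM, 71.9% with RA 1 µM and 79.2% with DMSO.

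H3K4me2, a substrate of LSD1, was called at 99.0% of the sites with MC_2580, 96.3% with RA 0.01 µM, 94.8% with RA 1 µM, 98.2% with the combination and 97.8% with DMSO. RA 1 µM had the lowest share, a difference from DMSO of -3.09 percentage points (interval -3.66 to -2.52). The call was lost at 157 sites with this dose (3.57%), beside 8.13% of all LSD1 peaks, and at 96 with RA 0.01 µM (2.18%), beside 7.45%. With MC_2580 it was lost at 5 sites (0.114%), beside 1.09%, and gained at 55 of the 97 sites that lacked it in DMSO (56.7%), beside 42% of all LSD1 peaks without the mark. With the combination it was lost at 27 sites (0.614%), beside 2.69%, and gained at 45 (46.4%), beside 35.5%. RA 0.01 µM had 26 gains (26.8%), beside 12.6%, and RA 1 µM had 18 (18.6%), beside 16.9%. Without GFI1, LSD1 peaks over H3K4me3 lost H3K4me2 at 0.348%, 2.18%, 3.17% and 1.11% for MC_2580, RA 0.01 µM, RA 1 µM and the combination. They gained it at 57.0%, 24.4%, 20.9% and 37.2% of those without it in DMSO, in that order. Against LSD1 peaks over H3K4me3 without GFI1, the changes in H3K4me2 share differed by -0.06 points with MC_2580, -0.08 with RA 0.01 µM, -0.56 with RA 1 µM and 0.49 with the combination, and all 4 intervals spanned 0.

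H3K4me3 was present at every site in DMSO by the rule, so only losses could appear. It was lost at 16 sites with MC_2580 (0.356%, beside 0.323% of all LSD1 peaks over H3K4me3). With RA 0.01 µM it was lost at 135 (3.00%, beside 2.65%), with RA 1 µM at 176 (3.91%, beside 3.71%) and with the combination at 80 (1.78%, beside 1.96%), shares near those of all such peaks. With RA 0.01 µM the change in share at the sites minus that without GFI1 was -0.84 points (interval -1.55 to -0.14); the other 3 intervals of that difference spanned 0. In DMSO 3967 sites carried all 4 marks, and 3265 sites (72.6%) were called in all 20 histone lists, against 72.4% of LSD1 peaks over H3K4me3 without GFI1.

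**Figure D2:**
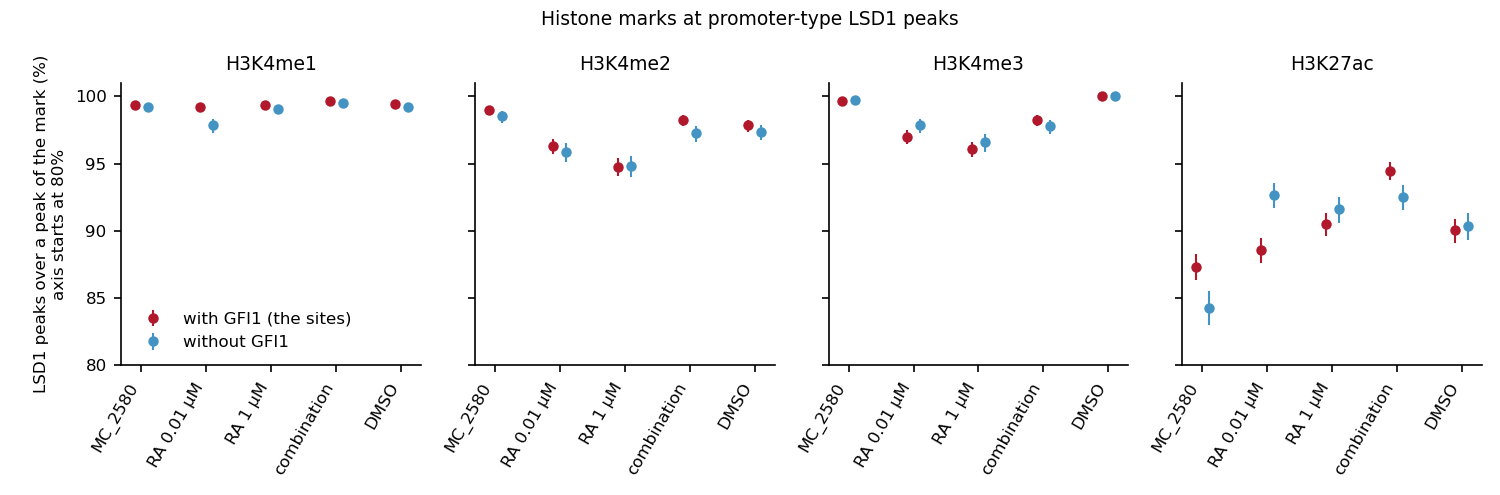
Percent of LSD1 peaks over H3K4me3 that overlap a peak of each mark in each condition, for the sites (red) and for peaks without GFI1 (blue), with exact 95% binomial intervals; the axis starts at 80%. H3K27ac moves most, with the sites lowest with MC_2580 (87.3%) and highest with the combination (94.5%).

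H3K27ac, the mark of active promoters and enhancers, was not called at all sites in any condition. It was found at 87.3% of the sites with MC_2580, 88.6% with RA 0.01 µM, 90.5% with RA 1 µM, 94.5% with the combination and 90.0% with DMSO. The differences from DMSO were -2.69 percentage points with MC_2580 (interval -3.52 to -1.87), -1.47 with RA 0.01 µM (-2.44 to -0.50), 0.44 with RA 1 µM (-0.37 to 1.26) and 4.45 with the combination (3.63 to 5.26). The RA 0.01 µM difference was -1.36 (-2.78 to 0.07) with a minimum score of 100 in every list, an interval that spans 0, and -2.92 (-3.95 to -1.89) with an overlap of at least 50% of the shorter peak. The combination was above both of its single agents. The whole H3K27ac lists held 41191 peaks with the combination, 55793 with RA 0.01 µM, 24552 with MC_2580 and 32789 with DMSO, and the part of list length was not tested.

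The change at the sites differed from that at LSD1 peaks over H3K4me3 without GFI1 by more than counting error in 3 of the 4 treatments. Without GFI1 the differences from DMSO were -6.07 points with MC_2580, 2.31 with RA 0.01 µM, 1.26 with RA 1 µM and 2.19 with the combination. The sites minus the peaks without GFI1 came to 3.38 points with MC_2580 (interval 2.12 to 4.64), -3.78 with RA 0.01 µM (-5.20 to -2.36), -0.82 with RA 1 µM (-2.05 to 0.42) and 2.26 with the combination (1.04 to 3.48). Compared within chromosomes, these were 3.92, -4.01, -0.87 and 2.27 points in the same order. The sites also had wider LSD1 peaks, higher LSD1 scores and wider H3K4me3 peaks than the peaks without GFI1. The classes were not matched on these here, and their part in the H3K27ac differences was not tested.

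Losses and gains made up these changes unequally. The H3K27ac call was lost at 241 sites with MC_2580 (5.95%, beside 11.3% of all LSD1 peaks), at 280 with RA 0.01 µM (6.92%, beside 10.1%), at 164 with RA 1 µM (4.05%, beside 7.27%) and at 80 with the combination (1.98%, beside 4.91%). Without GFI1 the losses were 7.81%, 3.82%, 3.34% and 2.69% in that order. Of the 448 sites that lacked H3K27ac in DMSO, 280 had it with the combination (62.5%, beside 46.9% of all LSD1 peaks without the mark). With RA 0.01 µM 214 had it (47.8%, beside 36%), with RA 1 µM 184 (41.1%, beside 28.9%) and with MC_2580 120 (26.8%, beside 20%). Among 313 such LSD1 peaks without GFI1 the shares were 10.2% with MC_2580, 59.7% with RA 0.01 µM, 44.4% with RA 1 µM and 47.9% with the combination. H3K27ac was called in all 5 conditions at 3502 sites (77.9%) and in no condition at 112.

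The 448 sites without H3K27ac in DMSO differed from the other 4049 in several ways. Their GFI1 score had a median of 157, against 117, and their H3K4me3 peaks were narrower, at 2149 against 3536 bases. Their LSD1 peak was called again with MC_2580 at 84.8%, against 97.9%, and its centre lay outside the H3K4me3 peak at 13.6%, against 6.92%. H3K4me2 overlapped 93.5% of them in DMSO, against 98.3%. The site at chr2:74059979-74061492, with a GFI1 score of 276, gained the mark with every treatment. Its score with RA 0.01 µM was 3100, where scores pile up and are not ranked. The site at chr11:76058241-76064437, 6197 bases wide with a GFI1 score of 276, gained it with the combination and with RA 1 µM. The site at chr5:14977287-14980514, 3228 bases wide with a GFI1 score of 392, gained it with MC_2580 and with the combination.

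**Figure D3:**
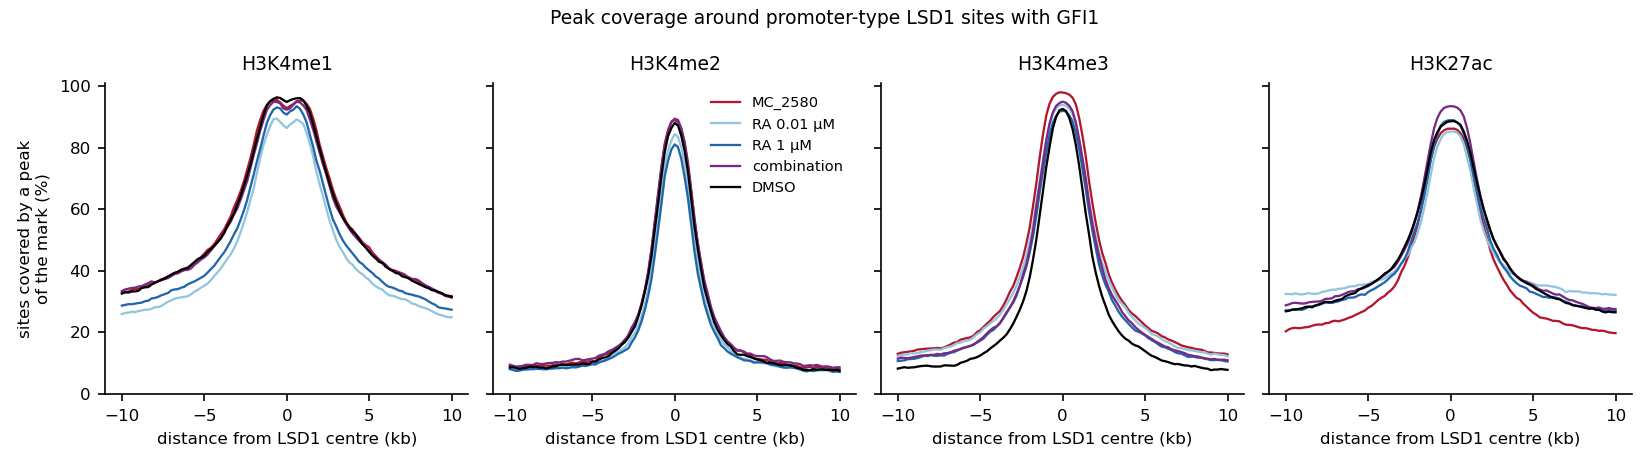
Percent of the 4497 sites that lie under a peak of each mark, by distance from the LSD1 centre in kb, in the 5 conditions. The H3K4me3 curve of every treated library lies outside the DMSO curve (black) on both flanks, and the H3K27ac curve of MC_2580 (red) lies lowest beyond 5 kb, while that of the combination (purple) is highest at the centre.

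H3K4me3 peaks covered more of the surroundings of the sites in every treated library than in DMSO. The mean length under an H3K4me3 peak within 5 kb of the site centre was 5348 bases with MC_2580, 5001 with RA 0.01 µM, 4674 with RA 1 µM, 4848 with the combination and 4121 with DMSO. The changes were 29.8%, 21.3%, 13.4% and 17.6%, against 27.2%, 24.9%, 15.8% and 15.6% around LSD1 peaks over H3K4me3 without GFI1. At 1 kb from the centre 90.0% of sites lay under an H3K4me3 peak with MC_2580, 82.7% with RA 0.01 µM, 78.9% with RA 1 µM, 82.4% with the combination and 73.9% with DMSO. The same coverage by H3K27ac differed from DMSO by -8.87% with MC_2580, -6.12% with RA 0.01 µM, -3.81% with RA 1 µM and 2.15% with the combination. Around peaks without GFI1 its changes were -15.9%, 7.79%, 0.61% and 1.73%. H3K4me2 coverage changed by 3.80%, -7.21%, -12.4% and 4.25% around the sites, against 2.81%, -4.21%, -7.37% and 4.58% around peaks without GFI1.

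The H3K4me3 peaks that held a site were wider in each treated library than in DMSO, most with MC_2580. The median width of a treated peak was 4756 bases with MC_2580, 4522 with RA 0.01 µM, 4140 with RA 1 µM and 4200 with the combination. The same peaks in DMSO had medians of 3230, 3303, 3326 and 3274 bases, each over the peaks still called with that treatment and counting every H3K4me3 peak that a site touched. The median log2 width ratio to DMSO was 0.40 with MC_2580 (interval 0.38 to 0.41), 0.30 with RA 0.01 µM (0.29 to 0.31), 0.19 with RA 1 µM (0.18 to 0.20) and 0.22 with the combination (0.21 to 0.23). These rest on the peaks still called. Of the 4488 peaks, 16 had no treated counterpart with MC_2580 (0.357%, beside 2.2% of all H3K4me3 peaks), 140 with RA 0.01 µM (3.12%, beside 3.97%), 183 with RA 1 µM (4.08%, beside 6.12%) and 86 with the combination (1.92%, beside 6.29%). Peaks at least 1.5-fold wider numbered 1533 with MC_2580 (34.3%, beside 32.1% of all H3K4me3 peaks), 1120 with RA 0.01 µM (25.8%, beside 29.6%), 802 with RA 1 µM (18.6%, beside 20.6%) and 980 with the combination (22.3%, beside 19.7%). Peaks at least 1.5-fold narrower numbered 0 with MC_2580 (beside 0.033%), 10 with RA 0.01 µM (beside 0.139%), 33 with RA 1 µM (beside 0.56%) and 23 with the combination (beside 0.733%). In 13.3% of the peaks with MC_2580 the treated peak reached another H3K4me3 peak of DMSO, and in 9.92% to 11.7% with the other treatments. Set against the whole list, the sites' peaks stood close to the background, and among the H3K4me3 lists that of DMSO had the fewest peaks.

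Narrow H3K4me3 peaks were more often wider after treatment than broad ones in every class, and the sites lay in broad ones, so the classes were compared within quartiles of the DMSO width. The DMSO width sets both the quartile and the ratio. A higher share among narrow peaks can thus come from the choice itself and is a description. In the narrowest quartile (306 to 1519 bases) 79.8% of the sites' peaks were at least 1.5-fold wider with MC_2580, against 68.3% of peaks with LSD1 but no GFI1 and 59.9% of peaks without LSD1. Their median log2 ratio was 1.06, against 0.81 and 0.71. In the second quartile the shares were 50.2%, against 33.6% and 27.7%, in the third 28.6%, against 19.4% and 17.4%, and in the broadest 17.4%, against 15.5% and 13.6%. Averaged over the quartiles, the sites exceeded peaks with LSD1 but no GFI1 by 8.17 percentage points with MC_2580 (interval 6.24 to 10.1) and by 5.60 points with the combination (3.89 to 7.30). With RA alone the difference was 0.55 points at 0.01 µM (-1.42 to 2.52) and 1.56 points at 1 µM (-0.16 to 3.28). These RA intervals depended on the settings: counting peaks at least 2-fold wider, the RA differences were 1.78 (0.36 to 3.20) and 1.93 points (0.73 to 3.14), against 6.10 with MC_2580 and 3.86 with the combination, and on autosomes alone that with RA 1 µM was 1.75 (0.02 to 3.48). Against peaks without LSD1 the differences were 11.7 points with MC_2580 (interval 10.2 to 13.1) and 9.21 with the combination (7.92 to 10.5). With RA alone they were 2.26 points at 0.01 µM (0.79 to 3.74) and 3.62 at 1 µM (2.33 to 4.92).

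The differences with MC_2580 and with the combination were smaller with LSD1 score strata added or with another list as baseline. With quartiles of the LSD1 score added, the excess over peaks without GFI1 was 5.77 points with MC_2580 (interval 3.46 to 8.08) and 2.72 with the combination (0.58 to 4.86), and the RA differences were -2.27 (-4.66 to 0.12) and -0.30 (-2.41 to 1.81). Within chromosomes and width it was 7.90, 0.42, 1.27 and 5.76 points for MC_2580, RA 0.01 µM, RA 1 µM and the combination. Taken over the RA 0.01 µM library instead of the shorter DMSO list, peaks at least 1.5-fold wider made up 9.86% of the sites' peaks with MC_2580 (beside 6.29% of all), 0.984% with RA 1 µM (beside 0.979%) and 3.11% with the combination (beside 1.57%). Over that library the excess over peaks without GFI1 was 4.56 points with MC_2580 (interval 3.39 to 5.73), 1.96 with the combination (1.32 to 2.59) and 0.53 with RA 1 µM (0.15 to 0.91).

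**Figure D4:**
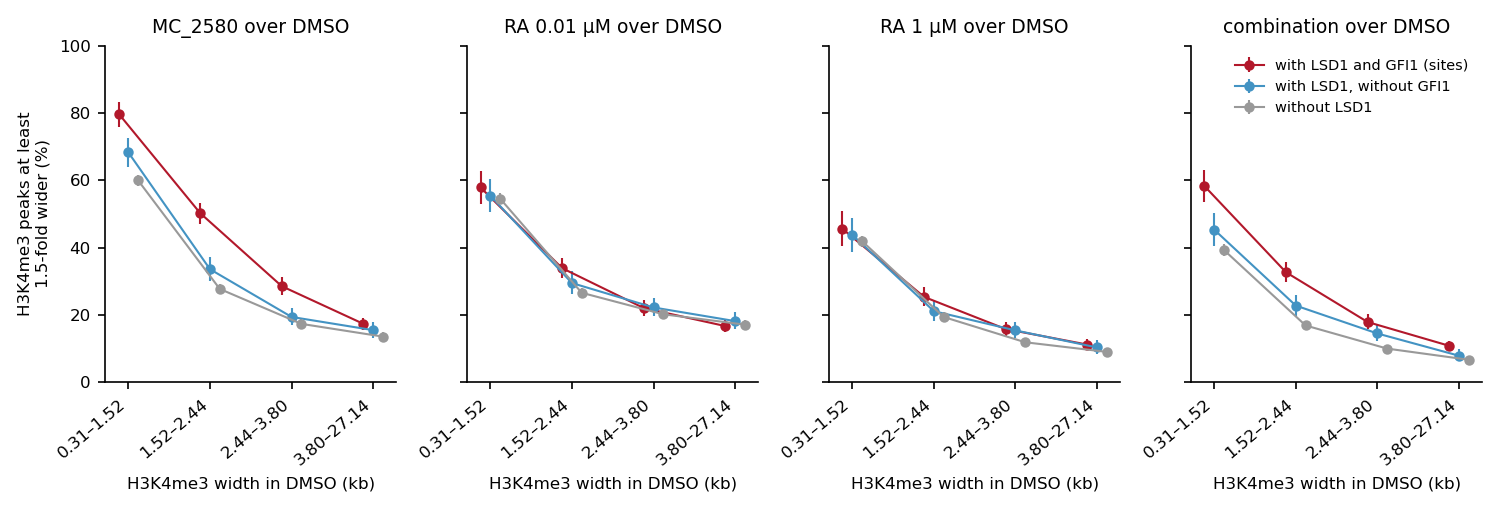
Percent of H3K4me3 peaks at least 1.5-fold wider than in DMSO, by quartile of their width in DMSO in kb, for peaks with a site (red), with LSD1 but no GFI1 (blue) and without LSD1 (grey), with exact 95% binomial intervals. The red points lie above the others with MC_2580 and with the combination, while the 3 classes lie closer together with RA alone.

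Sites with a higher GFI1 score had a wider H3K4me3 peak more often with MC_2580 and with the combination, while with RA alone the difference between low and high scores had intervals that spanned 0. The H3K4me3 peaks with a GFI1 peak of their own were ranked by GFI1 score into quartiles, from scores of 50.0 to 73.8 up to scores of 221 to 3100. At least 1.5-fold widening with MC_2580 was found in 39.3% of the highest quartile, 33.5% of the third, 30.9% of the second and 26.7% of the lowest. With the combination the shares were 25.0%, 20.3%, 20.6% and 18.1%. With RA 0.01 µM they were 23.0%, 22.6%, 25.7% and 26.2%, and with RA 1 µM 16.3%, 15.7%, 18.5% and 19.3%. The highest minus the lowest quartile came to 12.6 points with MC_2580 (interval 8.64 to 16.5), 6.91 with the combination (3.42 to 10.4), -3.21 with RA 0.01 µM (-6.89 to 0.48) and -2.94 with RA 1 µM (-6.22 to 0.36). Within quartiles of the DMSO width these were 13.0, 6.85, -2.69 and -2.44 points. The median LSD1 score was higher along the same ranking, at 832 in the highest GFI1 quartile and 422 in the lowest, and the parts of GFI1 and LSD1 in the gradient were not separated here.

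The gain of H3K27ac with the combination was also largest at the highest GFI1 scores. Ranked by GFI1 score, H3K27ac was called in DMSO at 84.4% of the sites in the highest quartile and at 92.7% in the lowest. With the combination the difference from DMSO was 8.54 points in the highest quartile (interval 6.62 to 10.5) and 2.22 points in the lowest (0.78 to 3.66). With MC_2580 the change was -0.53 points in the highest quartile (-2.41 to 1.34) and -4.62 in the lowest (-6.25 to -2.99). With RA 0.01 µM it was -2.76 (-4.95 to -0.57) and 0.62 (-1.16 to 2.41), and with RA 1 µM 0.09 (-1.89 to 2.07) and 1.07 (-0.33 to 2.46). The highest quartile also had the most sites without the mark in DMSO, where a gain could be called.

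**Figure D5:**
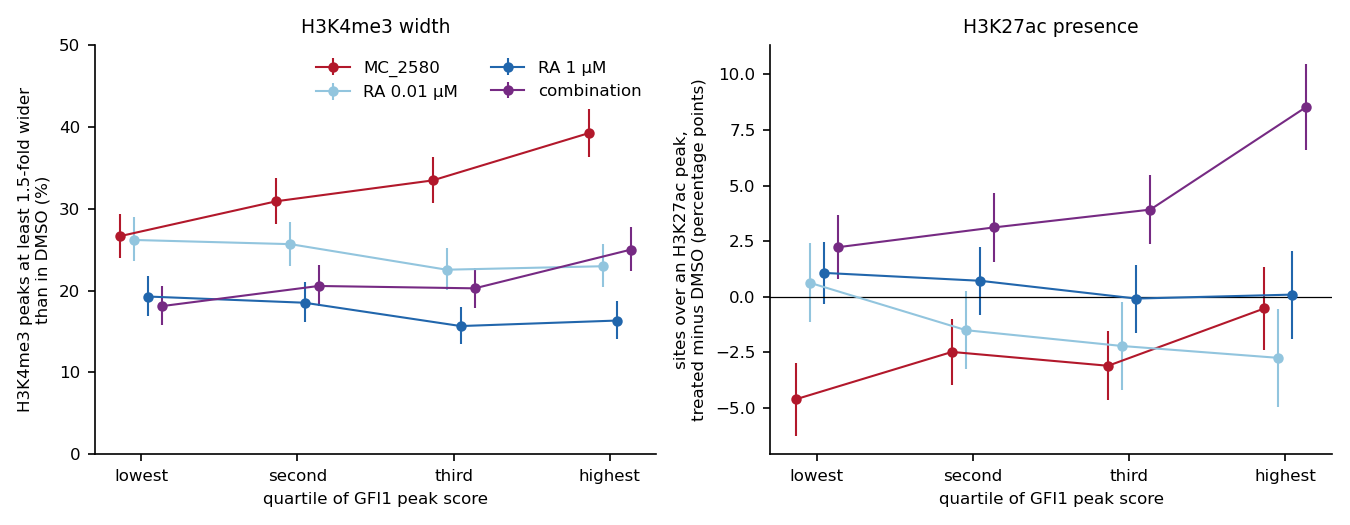
Left, percent of H3K4me3 peaks at least 1.5-fold wider than in DMSO by quartile of GFI1 score, for the 4 treatments, with exact 95% binomial intervals. Right, percentage-point difference of the share of sites over an H3K27ac peak, treated minus DMSO, by quartile of GFI1 score, with 95% intervals; MC_2580 (red) climbs from left to right in the left panel, and the combination (purple) is highest at 8.54 points in the right panel.

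The edges of the H3K4me3 peaks were also compared by the position of the LSD1 centre, at sites alone in their H3K4me3 peak. The outward shift from DMSO of the edge nearer to the LSD1 centre was set against that of the far edge. With MC_2580 the near and far edges moved a median of 347 and 353 bases at 1444 sites centred within 0.2 of the H3K4me3 centre, 375.5 and 422 bases at 1520 sites at 0.2 to 0.5, and 490 and 491 bases at 920 sites at 0.5 to 1. At these sites, centred inside the H3K4me3 peak, the near edge did not move farther than the far edge with MC_2580. The other treatments varied at 0.5 to 1. There the near and far shifts were 292 and 243 bases with the combination, 310.5 and 393 with RA 0.01 µM, and 201 and 202.5 with RA 1 µM. LSD1 peaks without GFI1 had 215.5 and 168.5 bases with the combination at that position. At 304 sites with the LSD1 centre outside the peak the shifts with MC_2580 were 1072 and 372.5 bases. Those sites were picked by a DMSO edge that stops short of the LSD1 centre, and the shift is counted from the same edge, so a larger near shift is built into the choice and the values are a description. The other treated libraries had it too, at 475 and 226 bases with RA 0.01 µM, 286.5 and 152.5 with RA 1 µM and 466 and 225 with the combination, as did LSD1 peaks without GFI1, at 676.5 and 297.5 bases with MC_2580.

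Single H3K4me3 peaks showed how far the treatments could part. The examples were chosen for their width ratios and are descriptions. The peak at chr13:98945809-98947398 was 15115 bases wide with MC_2580, 2004 with RA 0.01 µM, 1624 with RA 1 µM, 1845 with the combination and 1590 with DMSO. Here the spread appeared with the inhibitor alone. The peak at chr19:16110576-16112174 was 14145 bases wide with MC_2580, 3714 with RA 0.01 µM, 3468 with RA 1 µM, 17878 with the combination and 1599 with DMSO, so that both libraries with the inhibitor stood apart from both with RA alone. The peak at chr16:83190161-83192340 was far wider in the libraries with RA than with the inhibitor alone, with 5410 bases with MC_2580, 25615 with RA 0.01 µM, 20740 with RA 1 µM, 25665 with the combination and 2180 with DMSO. In each of these cases the widest treated peaks reached another H3K4me3 peak of DMSO.

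Other peaks were narrower or not called with RA 1 µM, and not narrower with the inhibitor alone. The peak at chr14:90762802-90769331 measured 6637 bases with MC_2580, 1586 with RA 0.01 µM, 6101 with the combination and 6530 with DMSO, and was not called with RA 1 µM. The peak at chr3:52503451-52508377, with a GFI1 score of 954, measured 6767 bases with MC_2580, 2706 with RA 0.01 µM, 2012 with RA 1 µM, 4804 with the combination and 4927 with DMSO. The peak at chr19:3090864-3093488, with a GFI1 score of 1155, measured 8465 bases with MC_2580, 3379 with RA 0.01 µM, 1111 with RA 1 µM, 2346 with the combination and 2625 with DMSO. Its spans with MC_2580 and with RA 0.01 µM reached another H3K4me3 peak of DMSO. Its score with RA 1 µM was 54.95, and the chr14 peak scored 56.49 with RA 0.01 µM. Both lie near the lowest score of their lists, 50. In the first and second of these peaks the combination stayed near the DMSO width while RA 0.01 µM did not. This was not general among the peaks named by the same rules. At chr22:48305131-48308719 the widths were 1956 bases with RA 0.01 µM, 2019 with the combination and 3589 with DMSO. At chr7:156784538-156788588 they were 1951, 1620 and 4051 bases in that order. The H3K4me3 peak with the most sites was chr13:45637573-45655500, with 4. It measured 21707 bases with MC_2580, 21622 with RA 0.01 µM, 21623 with RA 1 µM, 20042 with the combination and 17928 with DMSO. Its log2 width ratios to DMSO were 0.28, 0.27, 0.27 and 0.16 in that order of treatments. The sites' peaks in the broadest quartile of DMSO width had medians of 0.26, 0.24, 0.14 and 0.13. With every treatment the treated peak reached another H3K4me3 peak of DMSO.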

How the data were processed

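ChIP-seq peak lists of 23 samples were used; the 2 input samples had none here. Per the submitters' processing notes, Bowtie 1.0.1 and MACS 1.4.1 were among the tools and hg18 was the build. Each deposited list gives chromosome, start, end and a score per peak, on the scale of -10 times log10 of the caller's p-value; the score is the authors' and was used within its list only. Scores pile up at 3100, so no order is read among the highest scores. The LSD1 lists had been filtered before deposit by a step not given in the sources used here. Deposited starts and ends are positions in bases, with no unit other than that. A start below 0 in 8 H3K27ac peaks was set to 0.

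Overlaps of at least 1 base, widths and coverage were computed with Python 3.11.15, NumPy 2.4.6, pandas 2.3.3 and SciPy 1.17.1. A treated H3K4me3 width is the span of the treated peaks over a DMSO peak. Differences within quartiles of width were averaged with the weights of the sites. Intervals are exact binomial, Newcombe, order-statistic or normal, at 95%. The overlap and width steps were tested on simulated lists and recovered all 3436 planted sites. Members, lists and comparisons were chosen with earlier results of these data known. Regions are named by fixed rules (highest scores, widest, largest or smallest width ratio among peaks scoring at least 100, highest-scoring gain or loss), of which examples are given; those on the edge of the rule were added as its limits. With 1 library per group no test between conditions was possible. Gene names, promoters and sequences need hg18 annotation and were not used here.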

Additional observations from a re-analysis of the deposited data

How the results depend on the processing

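No paired analysis was possible because each group had 1 library and the labels give no shared replicate numbers. Of 163 recomputed values of 20 results, 139 stayed within the interval or limit of the reported value and 0 changed sign among those whose interval excluded 0. A minimum score of 100 in every list left 2285 sites. It put the H3K27ac difference with the combination at 6.21 points and the median log2 H3K4me3 width ratios at 0.38, 0.27, 0.16 and 0.20 for MC_2580, RA 0.01 µM, RA 1 µM and the combination. Joining histone peaks within 1 kb gave 0.38, 0.28, 0.17 and 0.20 in that order. An overlap of at least 50% of the shorter peak put the H3K27ac difference with RA 0.01 µM at -2.92 points. With 1 minimum score for both LSD1 lists, the LSD1 width ratio was 1.35, LSD1 was called with MC_2580 at 98.3% of the sites, and the log2 width ratios were 0.43 with MC_2580 and 0.24 with the combination. Sites alone in their H3K4me3 peak had a median relative distance of 0.30.

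2 further families were added after seeing the data: the excess of widened peaks over those without GFI1 within width quartiles, and the difference in H3K27ac change. At a fold of 2 in place of 1.5, the excess was 6.10 points with MC_2580, 1.78 with RA 0.01 µM, 1.93 with RA 1 µM and 3.86 with the combination, and all 4 intervals excluded 0. With quartiles of LSD1 score added it was 5.77 with MC_2580, -2.27 with RA 0.01 µM, -0.30 with RA 1 µM and 2.72 with the combination. Over the RA 0.01 µM list in place of DMSO it was 4.56 with MC_2580 and 1.96 with the combination. Over its alternatives the excess ran from 4.56 to 9.32 points with MC_2580 and from 1.96 to 7.08 with the combination, and it took both signs with RA 0.01 µM (-2.27 to 1.78) and at 1 µM (-0.30 to 1.93). With a minimum score of 100 the H3K27ac difference with RA 0.01 µM had an interval that spanned 0 (-2.78 to 0.07). The cause of these shifts was not tested. Depth is unknown, and peaks near a list's minimum score have no replicate to show how often they would be called again.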
